A study of Mus musculus with 8 samples.

Results

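A set of genes of lymphoid development was followed in mouse granulocyte-macrophage progenitors, cells whose normal fate is myeloid. They are Dntt, Rag1, Rag2, Thy1, Il7r, Ly6d, Satb1, Notch1, Ebf1 and Ikzf3, 10 of the 34199 genes in the count tables. They were chosen by name and by measured values, as lymphoid genes expressed while HOXA9 was active, so their difference between cells with and without active HOXA9 is described and not tested. Of the 10 genes, 8 were at or above 1 CPM (counts scaled to the library's total of gene counts, with TMM factors) in all 6 libraries with active HOXA9, and Il7r and Ly6d were not. A filter on low counts left 9 of the 10 for testing and removed Ly6d.

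The cells were iGMPs, C57Bl/6 bone marrow progenitors immortalised with a fusion of HOXA9 to a hormone-binding domain of the estrogen receptor and carrying GFP under the lysozyme gene as a reporter of myeloid maturation. All 4 groups shared this background and medium with stem cell factor, and each had 2 libraries. Uninduced cells were taken at 0 h in 150 ng/ml estradiol, which keeps HOXA9 active. CAF-1 OFF cells were given 500 µM IPTG for 48 h to switch on an shRNA against Chaf1b, a subunit of the histone chaperone CAF-1, IPTG-treated control cells had IPTG in the medium for the same 48 h, and HOXA9 OFF cells spent 48 h without estradiol. As the study describes them, the inducible shRNA lines were clonal, which limits how far they stand for progenitors in general. The study's methods name a vector with a filler sequence as the control for IPTG induction, and its supplement speaks of independent sub-clones behind RNA-seq tracks, but the labels tie neither to these libraries. P-values therefore measure the spread between these libraries, which may be technical.

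Lymphoid receptor genes are assembled by V(D)J recombination. RAG1 and RAG2 together form the recombinase that cuts the DNA, and terminal deoxynucleotidyl transferase, the product of Dntt, adds untemplated nucleotides at the joints. EBF1 commits cells to the B lineage, NOTCH1 signalling commits them to the T lineage, the IL-7 receptor supports the survival of early lymphocytes in the mouse, and transcripts of several of these genes are known in multipotent progenitors before lineage commitment, a state called lymphoid priming.

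The libraries held 14044284 to 22423837 gene counts, and 3 counts, taken as the detection floor, were 0.128 to 0.212 CPM. Floors and counting intervals cover counting error only. Chaf1b, the shRNA target, was at 96.7 and 100.2 CPM in the uninduced libraries (replicates 1 and 2, the order used throughout), 95.0 and 101.6 in the IPTG-treated control, 18.7 and 9.72 in CAF-1 OFF and 48.3 and 41.0 in HOXA9 OFF. Its log2 fold change in CAF-1 OFF against uninduced cells was -2.79 ± 0.27 (SE; edgeR adjusted p = 0.00236).

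Promoters are shown for 4 genes, Dntt, Rag1 and Rag2, which were at or under the floor in both HOXA9 OFF libraries, and Il7r, which had the opposite pattern. Each is the 250 bases before the RefSeq transcription start (GRCm38.p6 table; 7 of the 10 genes had an entry), placed in mm9 by exact match and written 5′ to 3′ on the gene's strand. Capitals mark E-boxes (CANNTG), the hexamer bound by E proteins and other basic helix-loop-helix factors.
Dntt, mm9 chr19:41103515-41103764, plus strand: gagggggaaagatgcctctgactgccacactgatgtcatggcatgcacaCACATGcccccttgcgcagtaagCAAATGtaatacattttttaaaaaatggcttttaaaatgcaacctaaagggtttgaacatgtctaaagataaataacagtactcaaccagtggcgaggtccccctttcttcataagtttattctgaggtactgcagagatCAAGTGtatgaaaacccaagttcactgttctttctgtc
Rag1, mm9 chr2:101489690-101489939, minus strand: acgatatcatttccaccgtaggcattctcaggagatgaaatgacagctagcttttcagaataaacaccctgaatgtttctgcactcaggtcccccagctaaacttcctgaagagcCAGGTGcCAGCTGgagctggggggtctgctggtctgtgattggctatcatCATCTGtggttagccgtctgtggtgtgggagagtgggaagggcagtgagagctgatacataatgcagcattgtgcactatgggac
Rag2, mm9 chr2:101464619-101464868, plus strand: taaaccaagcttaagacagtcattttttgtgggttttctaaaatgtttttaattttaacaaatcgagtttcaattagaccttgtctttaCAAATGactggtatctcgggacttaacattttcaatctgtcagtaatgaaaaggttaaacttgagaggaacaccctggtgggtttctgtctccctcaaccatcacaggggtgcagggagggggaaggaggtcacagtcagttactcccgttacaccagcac
Il7r, mm9 chr15:9459632-9459881, minus strand: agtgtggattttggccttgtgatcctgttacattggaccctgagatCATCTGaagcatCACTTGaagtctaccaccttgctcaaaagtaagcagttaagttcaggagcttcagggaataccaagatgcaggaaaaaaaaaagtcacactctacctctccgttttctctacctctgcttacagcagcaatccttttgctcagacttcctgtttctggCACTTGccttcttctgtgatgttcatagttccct

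The windows of Dntt, Rag1 and Il7r each held 3 E-boxes and that of Rag2 held 1. An E-box was in 66.2% of 32851 RefSeq promoters of this length, so its presence does not set these genes apart. Rag1 had 1 match to the MEIS core TGACAG, starting at position -210 from the start, and Rag2 had 1 at position -125, against 15.9% of all promoters with a match. Rag1 also had 2 matches to the RUNX core TGTGGT at positions -81 and -67 (14% of promoters), the first of which overlaps the E-box at -85. The HOX-PBX letters TGATTNAT were in 2.82% of promoters and matched none of these 4 windows. The other motifs searched, all on both strands, were the ETS core GGAA (93.4% of promoters; contained in the Ikaros letters), with 1 match in Dntt, 3 in Rag1, 2 in Rag2 and 4 in Il7r, the Ikaros core TGGGAA (21.6%), with 1 match, in Rag1 at position -52 over the ETS match at -50, the C/EBP letters TTGCNNCAA (1.74%) and an inverted-repeat EBF motif (0.779%). Neither the C/EBP nor the EBF motif was found in the 4 windows. These matches describe letters, not bound sites.

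The 10 genes split into opposite patterns. Dntt, Rag1, Rag2, Thy1 and Ebf1 were higher in all 6 libraries with active HOXA9 than in both HOXA9 OFF libraries, an order found for 30% of all tested genes. Il7r, Notch1 and Ikzf3 were lower in all 6, an order found for 29.9% of tested genes. Satb1 overlapped and Ly6d was near 0 throughout. These orders are the values on which the genes were chosen, and they describe the set without a test. In bulk RNA, fewer cells expressing a gene and less RNA per cell cannot be told apart.

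**Figure D1:**
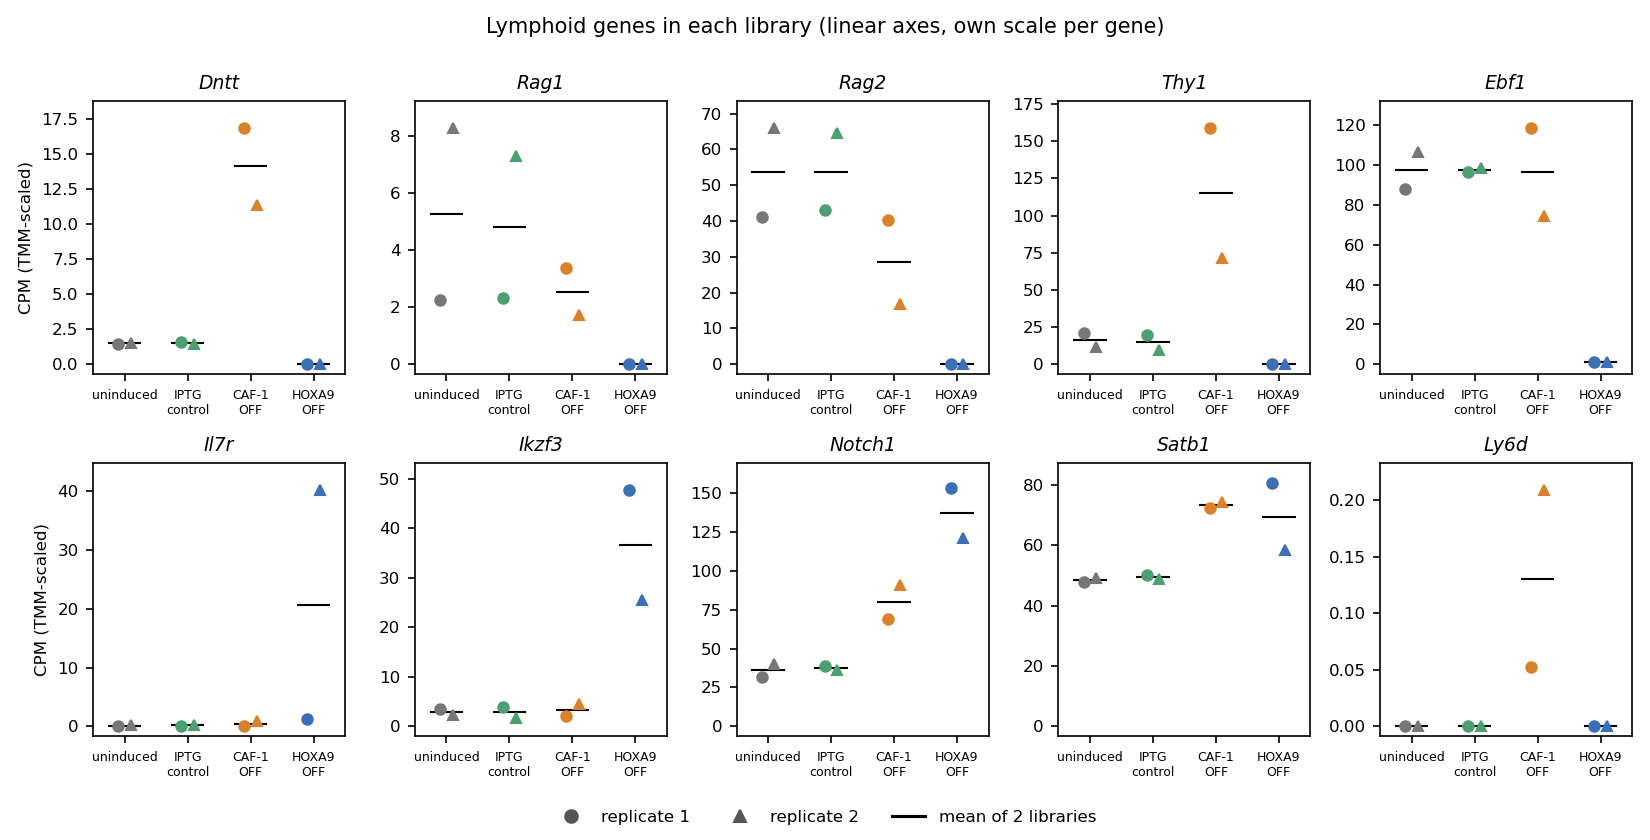
CPM of each of the 10 genes (y axis, linear from 0, own scale per gene) in the 4 groups (x axis), with circles for replicate 1, triangles for replicate 2 and lines for the mean of 2 libraries. In HOXA9 OFF cells the top row, Dntt to Ebf1, lies at 0 to 1.19 CPM, while Il7r, Ikzf3 and Notch1 reach their highest values.

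Dntt, Rag1 and Rag2, the genes of the set that act in V(D)J recombination, lost nearly all transcripts in HOXA9 OFF cells. Dntt stood at 1.47 and 1.54 CPM in uninduced cells, 1.62 and 1.47 in the IPTG-treated control, 16.9 and 11.4 in CAF-1 OFF, and had 0 counts in both HOXA9 OFF libraries. Against a floor of 3 counts in the smaller HOXA9 OFF library, it was at least 9.24-fold higher in uninduced and at least 86.9-fold higher in CAF-1 OFF cells. The controls were nearly equal, and both CAF-1 OFF libraries lay far above all 4 of them.

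Rag1 stood at 2.27 and 8.29 CPM in uninduced cells, 2.33 and 7.29 in the IPTG-treated control, 3.37 and 1.72 in CAF-1 OFF, and had 0 counts in both HOXA9 OFF libraries. It was at least 32.5-fold higher in uninduced and at least 15.6-fold higher in CAF-1 OFF than in HOXA9 OFF cells. Its replicates stood apart by 3.66-fold in uninduced and 3.13-fold in IPTG-treated control cells, with replicate 2 the higher in both groups, whereas in CAF-1 OFF cells replicate 2 was the lower, at 0.512 of replicate 1.

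Rag2 had 41.1 and 66.0 CPM in the uninduced libraries, 43.1 and 64.5 in the IPTG-treated control, 40.2 and 16.8 in CAF-1 OFF and 0.163 and 0.0991 in HOXA9 OFF. The HOXA9 OFF values are 3 and 2 counts. The ratio of uninduced to HOXA9 OFF cells, from summed counts, was 415.5 (95% counting interval 177.8 to 1281), and that of CAF-1 OFF to HOXA9 OFF was 219.9 (93.9 to 678). Rag2 shared the replicate order of Rag1, higher in replicate 2 of both controls and lower in replicate 2 of CAF-1 OFF.

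Rag1 and Rag2 lie 5753 bases apart on mouse chromosome 2 and are transcribed towards each other (mm9, GENCODE vM1: Rag2 chr2:101464875-101472685, plus strand; Rag1 chr2:101478439-101489658, minus strand). Although both subunits are needed for cutting, their levels were far from equal. Per kb of exon, Rag2 CPM exceeded Rag1 CPM 35.0- and 15.4-fold in the uninduced, 35.7- and 17.1-fold in the IPTG-treated control and 23.1- and 18.8-fold in the CAF-1 OFF libraries. Another gene there, B230118H07Rik, overlaps the exons of Rag1 by 80 bases on the same strand and those of Rag2 by 208 bases on the opposite strand, which are 1.21% and 6.08% of their exon bases. It had 22 and 46 counts in uninduced, 14 and 26 in IPTG-treated control, 27 and 28 in CAF-1 OFF and 0 and 0 in HOXA9 OFF libraries. It was at least 9.05-fold higher in uninduced than in HOXA9 OFF cells (edgeR adjusted p = 0.00078) and was not called in CAF-1 OFF against uninduced cells (log2 fold change -0.03 ± 0.49 SE, adjusted p = 0.973). Whether the counting used the strand is not stated, so how reads over the shared bases were counted is not known.

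On the far side of Rag1, Traf6, a ubiquitin ligase of innate immune signalling, did not follow. It stood at 64.9 and 74.3 CPM in uninduced and 73.0 and 72.4 in HOXA9 OFF cells (log2 fold change 0.06 ± 0.11 SE, adjusted p = 0.653). In CAF-1 OFF cells it was lower, at 45.5 and 41.9 CPM (log2 fold change -0.67 ± 0.11 SE against uninduced cells, edgeR adjusted p = 0.0103), a call lost without uninduced replicate 1 (0.0514) or 2 (0.0520) or CAF-1 OFF replicate 2 (0.0973). Against the IPTG-treated control the log2 fold change was -0.53 (adjusted p = 0.0216), under the 1.5-fold limit of a call.

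**Figure D2:**
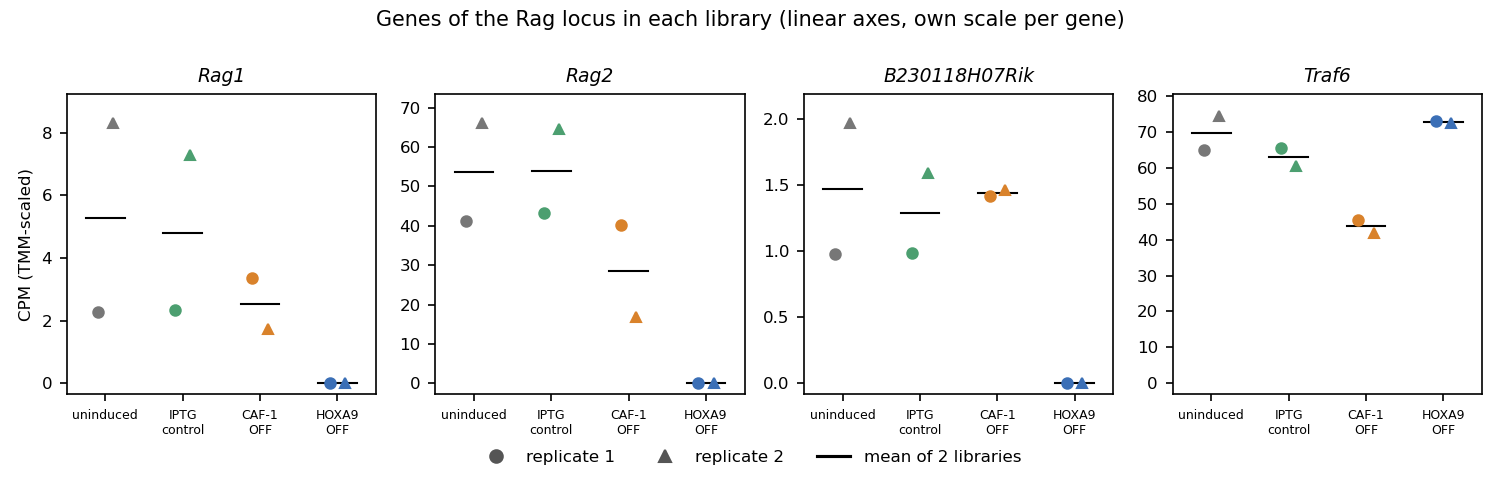
CPM of the genes of the Rag locus (y axis, linear from 0, own scale per gene) in the 4 groups (x axis), with circles for replicate 1, triangles for replicate 2 and lines for the mean of 2 libraries. Rag1, Rag2 and B230118H07Rik lie at or near 0 in HOXA9 OFF cells while Traf6 stays at 73.0 and 72.4 CPM.

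Of the surface proteins, Thy1, a glycoprotein of thymocytes and of some stem and stromal cells, stood at 20.7 and 11.9 CPM in uninduced cells, 19.9 and 9.69 in the IPTG-treated control, 158.9 and 71.4 in CAF-1 OFF and 0.108 and 0 in HOXA9 OFF. The ratio of summed counts was 313.6 (95% counting interval 86.5 to 2594) for uninduced and 2220 (614 to 18340) for CAF-1 OFF against HOXA9 OFF cells, which had 2 counts in all. Replicate 2 was the lower in all 4 groups, at 0.575, 0.486 and 0.449 of replicate 1 in uninduced, IPTG-treated control and CAF-1 OFF cells.

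Il7r, which encodes the alpha chain of the IL-7 receptor, went the other way and rested on 1 library. It had 0 and 7 counts in uninduced, 1 and 4 in IPTG-treated control, 0 and 17 in CAF-1 OFF and 23 and 811 in HOXA9 OFF libraries, the last being 1.25 and 40.2 CPM. Both HOXA9 OFF libraries lay above the other 6, but replicate 2 was 32.2-fold above replicate 1. The fitted log2 fold change of HOXA9 OFF over uninduced cells was 7.03, and it moved to 2.99 without HOXA9 OFF replicate 2 and to 11.6 without uninduced replicate 2, which leaves an uninduced library at 0 counts, so its size is not fixed by these libraries. Ly6d, a surface marker of B-biased lymphoid progenitors, had 1 and 4 counts in the CAF-1 OFF libraries and 0 counts in the other 6, so no fold is given.

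Among the regulators of transcription, Ebf1 followed the recombination genes. It stood at 88.1 and 106.6 CPM in uninduced cells, 96.2 and 98.3 in the IPTG-treated control, 118.5 and 74.3 in CAF-1 OFF and 1.14 and 1.19 in HOXA9 OFF. The mean was 83.1-fold lower in HOXA9 OFF than in uninduced cells in the fit, with 21 and 24 counts left in the HOXA9 OFF libraries. Ebf1 was therefore the one gene of the falling set that stayed above the floor in both HOXA9 OFF libraries.

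Ikzf3, which encodes the Ikaros family factor Aiolos of maturing lymphocytes, rose as the others fell. It stood at 3.43 and 2.31 CPM in uninduced cells, 3.95 and 1.66 in the IPTG-treated control, 2.10 and 4.60 in CAF-1 OFF and 47.8 and 25.5 in HOXA9 OFF. The fitted increase over uninduced cells was 12.8-fold. All 6 libraries with active HOXA9 lay well under both HOXA9 OFF libraries, with the 3 other groups overlapping each other.

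Notch1 stood at 31.8 and 40.3 CPM in uninduced cells, 38.6 and 36.1 in the IPTG-treated control, 69.2 and 90.7 in CAF-1 OFF and 153.4 and 121.4 in HOXA9 OFF, so the CAF-1 OFF libraries lay between the controls and HOXA9 OFF without overlap. The fitted increase in HOXA9 OFF over uninduced cells was 3.81-fold. Satb1, which encodes a chromatin organiser needed in T cell development, stood at 47.7 and 49.2 CPM in uninduced cells, 50.2 and 48.9 in the IPTG-treated control, 72.2 and 74.4 in CAF-1 OFF and 80.5 and 58.4 in HOXA9 OFF. Its CAF-1 OFF values lay between the HOXA9 OFF values, and all 4 stood above the 4 controls.

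CAF-1 OFF cells were compared with both control groups to ask which lymphoid transcripts change when the chaperone is depleted while HOXA9 stays active. The rule did not use this contrast, but the CAF-1 OFF libraries are 2 of the 6 with active HOXA9 whose expression it used, and the genes were chosen with earlier results known, so these counts describe the set and are no independent evidence about it. Dntt, Thy1, Notch1 and Satb1 rose against uninduced cells, 4 of 9 tested genes, where 10.5% of all 13080 tested genes were called higher (adjusted p under 0.05 and at least 1.5-fold). Each of these 4 calls depended on single libraries, as given per gene below. None of the 9 was called lower by edgeR or DESeq2, and 0 were lower at an unadjusted p under 0.05, against 3.5% of all tested genes called lower. Of the 9, Il7r could hardly be called lower, with 0 and 7 counts in uninduced and 1 and 4 in IPTG-treated control libraries. It passed the filter on low counts only with its HOXA9 OFF libraries, where it was high. Against the IPTG-treated control, Dntt, Thy1 and Notch1 rose, 3 of 9, with 9.56% of all genes called higher, and 0 of the 9 were called lower by either tool or lower at an unadjusted p under 0.05, with 3.2% of all genes called lower. At an adjusted p under 0.01 and 2-fold, 2 of the 9 were higher against uninduced cells, with 2.61% of all genes, and 1 against the IPTG-treated control, with 2.03%. As a description, the median log2 fold change against uninduced cells was 0.60 over the 9 genes and 0.01 over all tested genes. The 2 comparisons share the CAF-1 OFF libraries and are not independent.

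Dntt and Thy1 rose by amounts within their errors of each other. Dntt had a log2 fold change of 3.23 ± 0.32 (SE) against uninduced cells (9.37-fold, edgeR adjusted p = 0.00344) and 3.19 ± 0.32 against the IPTG-treated control (adjusted p = 0.00414). Without uninduced replicate 1 its adjusted p against uninduced cells was 0.0501 and its log2 fold change 3.19, under the 3.27 of Thy1. Thy1 rose by 2.82 ± 0.50 on the log2 scale against uninduced cells (7.05-fold, adjusted p = 0.0117) and by 2.97 ± 0.51 against the IPTG-treated control (adjusted p = 0.0121). Its call against uninduced cells was lost without uninduced replicate 1 (adjusted p = 0.0653) or replicate 2 (0.0670), and its call against the IPTG-treated control was lost without replicate 2 of that group (0.0822), while the log2 fold change stayed between 2.10 and 3.55 over all leave-outs in both comparisons.

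Notch1 rose by 1.15 ± 0.19 on the log2 scale against uninduced cells (2.22-fold, edgeR adjusted p = 0.00915) and by 1.10 ± 0.19 against the IPTG-treated control (adjusted p = 0.0119). The first call was lost without uninduced replicate 1 (0.0747) or CAF-1 OFF replicate 2 (0.0732), and the second without CAF-1 OFF replicate 2 (0.0907) or IPTG-treated control replicate 1 (0.0716) or 2 (0.0857). Satb1 rose by 0.60 ± 0.15 against uninduced cells (1.51-fold, adjusted p = 0.0314), just over the fold limit. Against the IPTG-treated control its log2 fold change was 0.57 ± 0.15 (1.48-fold, adjusted p = 0.0412), just under it. The Satb1 call was lost without either uninduced, either CAF-1 OFF or either IPTG-treated control library, with adjusted p from 0.0588 to 0.173.

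Rag2 was at lower CPM in both CAF-1 OFF libraries than in all 4 controls, narrowly for replicate 1, and the difference did not pass (log2 fold change -0.91 ± 0.41 SE against uninduced cells, edgeR adjusted p = 0.150). Without CAF-1 OFF replicate 1 it was called lower (-1.70, adjusted p = 0.0400; -1.71 and 0.0427 against the IPTG-treated control). Rag1 had a log2 fold change of -1.05 ± 0.77 (adjusted p = 0.367) and overlapped between the groups. For Ebf1 it was -0.01 ± 0.21 (adjusted p = 0.971), for Ikzf3 0.23 ± 0.53 (0.791) and for Il7r 1.51 ± 2.23 (0.659). The SE of Rag1 and of Il7r exceeded the whole change of Satb1, so a change of that size could not be detected in them.

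**Figure D3:**
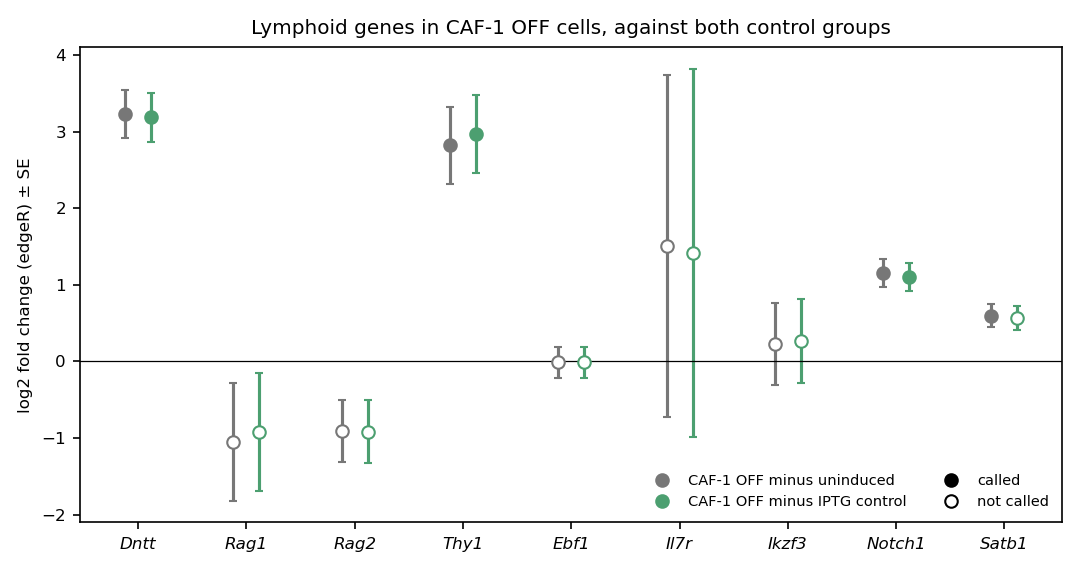
Log2 fold change (y axis, edgeR, bars ± SE) of the 9 tested genes (x axis) in CAF-1 OFF cells against uninduced (grey) and IPTG-treated control (green) cells, filled where called at adjusted p under 0.05 and 1.5-fold. Dntt and Thy1 lie near 3 in both comparisons, Notch1 near 1, Rag1 and Rag2 near -1 without a call, and Ebf1 at 0.

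IPTG and 48 h of culture left no difference that edgeR called in these genes. Between IPTG-treated control and uninduced cells 0 of the 9 genes and 0% of all tested genes were called by edgeR, with 0 of the 9 and 100 of all genes at an unadjusted p under 0.05. DESeq2 called 0 of the 9 and 5 of all genes. The log2 fold changes of the 9 ran from -0.15 for Thy1 to 0.10 for Il7r, with a median of 0.01.

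The CAF-1 OFF libraries differed from each other. Replicate 2, with the lower Chaf1b (9.72 against 18.7 CPM), had the lower CPM of Dntt, Rag1, Rag2, Thy1 and Ebf1 and the higher CPM of Il7r, Notch1 and Ikzf3. Some of these orders were not particular to CAF-1 OFF, since Thy1 was lower and Il7r higher in replicate 2 of all 4 groups, and Notch1 was also higher in uninduced replicate 2. With 2 libraries this is a description, and the part of Chaf1b level in it was not tested.

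Levels between genes were compared as CPM per kb of exon. In uninduced cells Rag2 led with a mean of 15.6, above Ebf1 at 9.98 and Thy1 at 9.41, whose libraries overlapped, then Satb1 at 5.17 and Notch1 at 2.53. Rag1 at 0.799 and Dntt at 0.707 overlapped, Ikzf3 stood at 0.328, and Il7r at 0.0466 overlapped Ly6d at 0. In CAF-1 OFF cells Thy1 led at 66.4 per kb without overlap. Ebf1, Rag2, Satb1, Dntt and Notch1 followed at 9.88 to 5.62 per kb, each overlapping the next, so that Dntt had moved from the level of Rag1 to that of Rag2 and Ebf1. In HOXA9 OFF cells the order was Notch1 at 9.65, Satb1 at 7.41, Il7r at 6.46 and Ikzf3 at 4.19 per kb, each overlapping the next, with Ebf1 at 0.119 and the others lower.

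Markers of other cells were read beside these genes. Of 8 listed myeloid progenitor markers 7 were matched in the files, and their summed CPM was 10580 to 14539 in uninduced, 10808 to 13900 in IPTG-treated control, 15831 to 15862 in CAF-1 OFF and 5723 to 7728 in HOXA9 OFF cells. All 7 were detected in every library, but the sum is carried by granule genes such as Mpo, and the HOXA9 OFF libraries stood below the other 6 in it. Cd34, a surface marker of progenitors, was at 1871 and 1710 CPM in uninduced and 250.8 and 242.1 in HOXA9 OFF cells, and Kit, the stem cell factor receptor, at 637 and 612 and at 198 and 167. Mpo, Ctsg and Cebpa were also lower in both HOXA9 OFF than in both uninduced libraries, but Elane and Prtn3 were not. Elane stood at 461 and 260 CPM in uninduced and 738 and 432 in HOXA9 OFF cells, and Prtn3 at 1450 and 943 and at 1820 and 1409. The label of myeloid progenitors therefore has marker support in the libraries with active HOXA9. In HOXA9 OFF cells most but not all of the matched markers were lower. The mature T cell markers Cd3e, Cd3g and Cd8a were at 0 in all 8 libraries. The 6 T cell markers summed to 1.20 to 1.78 CPM in uninduced, 1.10 to 1.20 in IPTG-treated control, 7.001 to 8.312 in CAF-1 OFF and 0.922 to 3.22 in HOXA9 OFF cells, with Cd5 carrying most of it. The B cell marker Ms4a1 was at or under the floor in all 8 libraries. The 6 B cell markers summed to 69.6 to 71.6 CPM in uninduced, 66.3 to 72.5 in IPTG-treated control, 62.2 to 67.8 in CAF-1 OFF and 228.9 to 245.2 in HOXA9 OFF cells, where Ighm alone was at 171.3 and 178.1 CPM.

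Erythroid markers summed to 0.347 to 2.25 CPM in all libraries, with Hba-a1 and Hbb-b1 at or under the floor. The 4 megakaryocyte markers summed to 23.3 to 25.2 CPM in uninduced, 26.5 to 29.2 in IPTG-treated control, 187.6 to 213.1 in CAF-1 OFF and 123.1 to 127.0 in HOXA9 OFF cells, with Gp1bb at 0. Different genes carried the 2 higher sums. In HOXA9 OFF cells Itga2b carried most of it, at 114.2 and 93.2 CPM. Pf4 was at 1.25 and 20.8 there, against 2.67 and 3.04 in uninduced cells. In CAF-1 OFF cells Itga2b was at 109.0 and 74.5 CPM and Pf4 at 55.7 and 124.4. The 5 stroma markers summed to 15.4 to 26.6, 20.6 to 25.9, 29.5 to 40.3 and 9.11 to 11.6 CPM in the same order of groups, most of it Pdgfrb, with Dcn at 0 and Col3a1 at or under the floor. The part of these markers in the results was not tested.

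Of 118 other lymphoid genes on 8 lists, 77 were tested. Between CAF-1 OFF and uninduced cells 14 were called higher and 1 lower (10.5% and 3.5% of all genes). Against the IPTG-treated control they were 16 and 1 (9.56% and 3.2% of all genes). The counts against uninduced cells depended on single libraries. Without uninduced replicate 1 they were 2 and 0, and without CAF-1 OFF replicate 2 they were 3 and 0. Without uninduced replicate 2 they were 6 and 0, and without CAF-1 OFF replicate 1 they were 9 and 1. The median log2 fold change over the 77 was 0.23. In HOXA9 OFF against uninduced cells 29 were called higher and 18 lower, where 25.2% and 22.1% of all genes were, with a median of 0.28. The counts of each list below are to be read beside these same shares of all genes. For the listed genes, each value in parentheses after a log2 fold change ± SE is its edgeR adjusted p.

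Early lymphoid regulators, 11 tested, gave 3 higher in CAF-1 OFF, and 2 higher and 6 lower in HOXA9 OFF cells. Flt3, the receptor of multipotent and lymphoid-primed progenitors, fell by 5.68 ± 0.57 on the log2 scale in HOXA9 OFF cells (edgeR adjusted p = 0.000115), from 244.9 and 349.4 to 9.27 and 2.43 CPM. Sox4, a factor of early B and T cells, fell by 4.44 ± 0.44 (adjusted p = 0.000108). Id2, an antagonist of E proteins, rose by 5.26 ± 0.35 (adjusted p = 2.44e-05), from 2.31 and 3.81 to 110.1 and 125.7 CPM. Mef2c, a factor with roles in lymphoid and myeloid progenitors, rose in both conditions, by 1.59 ± 0.28 in CAF-1 OFF (0.0113) and 3.31 ± 0.29 in HOXA9 OFF cells (6.43e-05). Foxo1, an activator of Rag and Il7r transcription in B cell precursors, rose by 1.32 ± 0.31 in CAF-1 OFF cells (0.0249).

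Of 12 genes of IL-7 receptor signalling, all tested, 2 were higher in CAF-1 OFF and 6 higher and 1 lower in HOXA9 OFF cells. Cish and Pim1, targets of STAT5, rose in both. Pim1 went from 269 and 221 counts in uninduced to 746 and 968 under CAF-1 OFF (log2 fold change 2.07 ± 0.20 SE, edgeR adjusted p = 0.00242) and to 1284 and 1079 in HOXA9 OFF cells (2.52 ± 0.20, adjusted p = 4.66e-05), and its CAF-1 OFF call held without any 1 library. Cish rose by 2.18 ± 0.39 (0.0121) and 2.40 ± 0.39 (0.00129). Il7, the ligand, fell by 1.62 ± 0.56 in HOXA9 OFF cells (0.0370), a call lost without either uninduced library (0.107 and 0.0990), either CAF-1 OFF library (0.0560 and 0.0597) or HOXA9 OFF replicate 1 (0.114).

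Of 22 Notch pathway genes 14 were tested, and beside the rise of Notch1 they moved both ways. In HOXA9 OFF cells 6 were higher and 2 lower. The coactivators Maml2 and Maml1 rose by 3.88 ± 0.42 and 1.43 ± 0.17 on the log2 scale (edgeR adjusted p = 0.000164 and 0.000283). Nrarp, a target and feedback inhibitor of Notch, fell by 2.52 ± 0.29 (0.000217), from 14.8 and 14.0 to 2.93 and 2.08 CPM, and Mfng, a glycosyltransferase acting on Notch receptors, fell by 1.11 ± 0.16 (0.000641). The Notch targets Hes1 and Hey1, named after their values were seen, were near the floor, Hes1 with 10 counts summed over the uninduced and 2 over the HOXA9 OFF libraries and Hey1 with 3 and 15. In CAF-1 OFF cells Maml2 rose by 2.73 ± 0.41 (0.00747) and Rbpj, the DNA-binding partner of Notch, fell by 0.67 ± 0.17 (0.0293) against uninduced cells, the 1 gene of the 77 called lower there at 1.5-fold.

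The list of V(D)J recombination genes beside Rag1, Rag2 and Dntt, made up of end joining genes, the break-response kinase gene Atm and the RAG cofactors Hmgb1 and Hmgb2, had 12 of 12 tested. In CAF-1 OFF cells 0 of the 12 were called by edgeR or DESeq2, with 3 at an unadjusted p under 0.05, when compared with uninduced cells. Against the IPTG-treated control 1 of the 12 was called higher, Lig4, named after its values were seen, which encodes the ligase of end joining (log2 fold change 0.92 ± 0.25 SE, edgeR adjusted p = 0.0421; 0.0532 against uninduced cells, and 0.0375 there with a replicate block). Its call against the IPTG-treated control was lost when each uninduced, CAF-1 OFF or IPTG-treated control library was left out in turn (0.0627 to 0.239). In HOXA9 OFF cells 3 were higher and 3 lower. Polm, a polymerase related to the Dntt product, rose by 2.02 ± 0.27 on the log2 scale (edgeR adjusted p = 0.000464), and Dclre1c, which encodes the hairpin-opening nuclease Artemis, rose by 1.55 ± 0.15 (0.000103). Xrcc6, which encodes Ku70, fell by 1.60 ± 0.13 (4.3e-05), and Hmgb1, a cofactor of RAG cutting, fell by 1.03 ± 0.15 (0.000702).

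B lineage genes, 13 of 20 tested, were 6 higher and 4 lower in HOXA9 OFF cells. Igll1, a surrogate light chain gene, fell with Ebf1, from 132.9 and 306.2 to 1.74 and 5.70 CPM (log2 fold change -5.86 ± 0.76 SE, edgeR adjusted p = 0.000389), and like Rag1 it was higher in replicate 2 of both controls (114.0 and 307.9 CPM in the IPTG-treated control) and lower in replicate 2 of CAF-1 OFF (293.8 and 199.5). Irf4, a factor of mature lymphocytes and of some myeloid cells, rose by 6.82 ± 0.50 (3.38e-05), from 0.267 and 0.641 to 46.0 and 58.7 CPM. Blnk, a B cell receptor adaptor also used in myeloid cells, rose by 4.89 ± 0.90 (0.00241). It went from 1.29 and 1.11 to 8.41 and 63.3 CPM, so the size of its rise rested largely on HOXA9 OFF replicate 2. In CAF-1 OFF cells Cd79a was the 1 gene called, from 2.09 and 2.27 to 15.5 and 15.3 CPM (2.82 ± 0.41, adjusted p = 0.00689).

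T lineage genes, 7 of 20 tested, gave 3 higher in CAF-1 OFF cells, and 1 higher and 2 lower in HOXA9 OFF cells. Il2ra, with 2 and 2 counts in uninduced and 36 and 58 in CAF-1 OFF libraries, had a ratio of 28.3 (95% counting interval 10.7 to 105.9; edgeR adjusted p = 0.0191). In HOXA9 OFF cells Tcf7, a T lineage factor, fell by 3.32 ± 0.38 (0.000221), and Lck, with 46 and 140 counts in uninduced and 2 and 3 in HOXA9 OFF libraries, was lower with an uninduced to HOXA9 OFF ratio of 31.3 (13.2 to 97.6; adjusted p = 0.00218). Cd28 rose by 4.60 ± 0.62 (0.000498), from 2.76 and 8.68 to 88.1 and 189.3 CPM.

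NK and innate lymphoid genes, 6 of 11 tested, were called in 1 direction, with 3 higher in CAF-1 OFF and 4 higher in HOXA9 OFF cells. Prf1, which encodes perforin, rose from 0.578 and 0.641 to 9.05 and 17.7 CPM under CAF-1 OFF (log2 fold change 4.44 ± 0.56 SE, edgeR adjusted p = 0.00506; 0.0566 without uninduced replicate 1), and Nkg7 by 1.76 ± 0.37 (0.0188). Klrk1, which encodes the receptor NKG2D, had 3 and 0 counts in uninduced and 349 and 386 in HOXA9 OFF libraries, a ratio of 291.0 (95% counting interval 99.2 to 1414; adjusted p = 0.000151). It passed the filter on low counts only through the HOXA9 OFF libraries, so it could only be called higher there. Klrd1 rose by 3.03 ± 0.80 (0.0130), a call lost without uninduced replicate 1 (0.0784) or HOXA9 OFF replicate 2 (0.0843).

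Of 7 relatives of Ikzf3, Satb1 and Ebf1, 2 were tested. Ikzf2, which encodes the Ikaros family factor Helios, was the relative of Ikzf3 called in both conditions. It went from 18.4 and 15.1 CPM in uninduced cells to 101.1 and 105.9 in CAF-1 OFF (log2 fold change 2.63 ± 0.24 SE, edgeR adjusted p = 0.00214) and to 54.9 and 39.2 in HOXA9 OFF cells (1.49 ± 0.23, adjusted p = 0.00104). Ikzf3 itself was 0.23 ± 0.53 in CAF-1 OFF and not called. The CAF-1 OFF call of Ikzf2 held without any 1 library.

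The calls against uninduced cells of Mef2c, Foxo1, Cish, Maml2, Rbpj, Cd79a, Il2ra and Nkg7 in CAF-1 OFF cells were each lost without at least 1 library. Without uninduced replicate 1 the adjusted p was 0.0845 for Mef2c, 0.141 for Foxo1, 0.0788 for Cish, 0.0621 for Maml2, 0.116 for Rbpj, 0.0680 for Cd79a, 0.129 for Il2ra and 0.0527 for Nkg7. Without CAF-1 OFF replicate 2 it was 0.0784 for Mef2c, 0.157 for Foxo1, 0.0930 for Cish, 0.0573 for Maml2, 0.200 for Rbpj, 0.0508 for Cd79a, 0.132 for Il2ra and 0.0996 for Nkg7. Without uninduced replicate 2 the calls of Foxo1, Cish, Rbpj, Il2ra and Nkg7 were lost (0.0656 to 0.108), and without CAF-1 OFF replicate 1 those of Il2ra and Nkg7 (0.0529 and 0.0723). The directions of these 8 genes did not change.

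**Figure D4:**
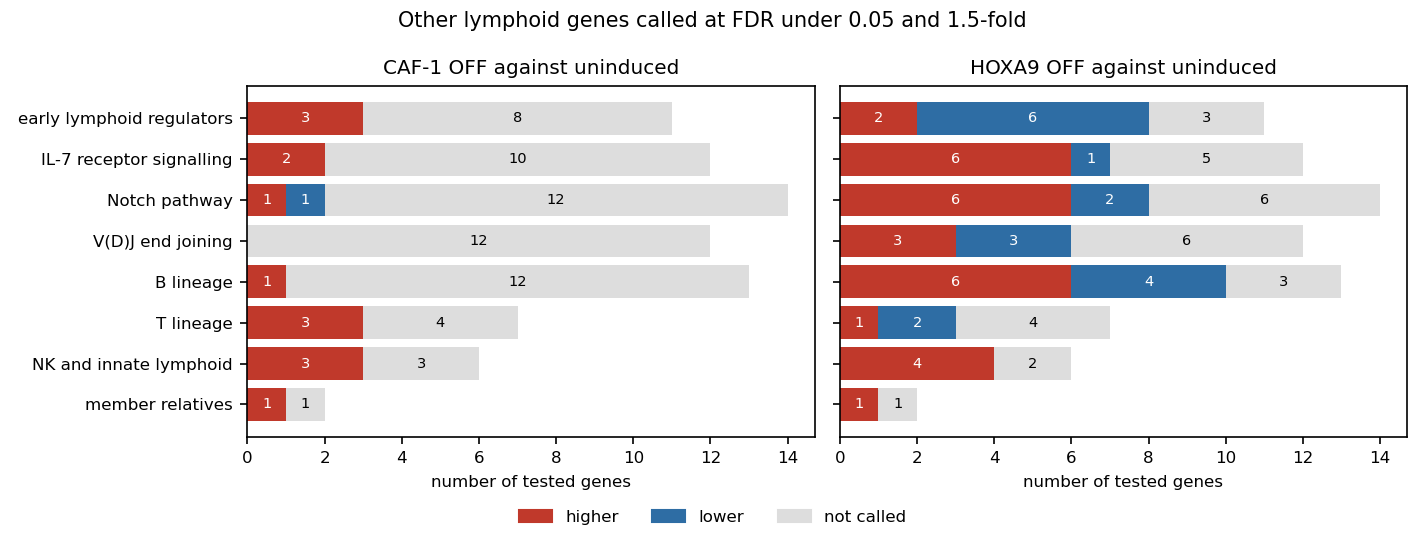
Number of tested genes (x axis) of each list of other lymphoid genes (y axis) called higher (red), lower (blue) or not called (grey) at adjusted p under 0.05 and 1.5-fold, in CAF-1 OFF (left) and HOXA9 OFF (right) against uninduced cells. Calls in CAF-1 OFF cells are 14 higher and 1 lower of 77, and in HOXA9 OFF cells 29 higher and 18 lower.

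Across the 8 libraries, which share 1 background and fall into 4 groups, log2 CPM of the genes was correlated as a description. Rag2 and Ebf1 had Pearson r = 0.99, Rag1 and Rag2 0.98, and Dntt and Thy1 0.98, while Dntt and Rag1 had 0.75. Ikzf3 had r = -0.98 with Rag1 and -0.97 with Rag2. Satb1 and Notch1 had r = 0.85. By the same measure over all genes whose log2 CPM averaged 1 or more, those most like Rag2 were Slc29a2, Fbxo21 and Repin1 (all 0.997), those most like Ebf1 were Dab2ip (0.999), Alad and Rabepk (both 0.998), and those most like Thy1 were 1110028C15Rik (0.997), 1700048O20Rik (0.995) and Gpc3 (0.994). For Notch1 they were 1110018G07Rik (0.997), Nhsl2 (0.996) and Cnst (0.995), for Ikzf3 Gng7 (0.995), Rarg and Hiatl1 (both 0.991), and for Satb1 the lymphoid factor Ikzf1 (0.976), Pecam1 (0.975) and Tmem79 (0.974). Dntt, Rag1, Il7r and Ly6d averaged less and were left out.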

How the data were processed

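Per the labels and the study's methods, the authors made directional libraries with an NEB kit, used STAR for alignment to mm9 and HTSeq for counting. The deposited values are raw counts per gene symbol without normalization or pooling, and 5 HTSeq summary rows per library were set aside. The annotation and strand setting are not given in the sources used here.

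The counts were fitted in edgeR 4.0.16 (R 4.3.3). Genes passing filterByExpr (13080 of 21216 detected) entered a single quasi-likelihood fit with TMM scaling (factors 0.895 to 1.06), a mean per group and p-values adjusted by Benjamini-Hochberg over the whole table. Calls were made at an adjusted p under 0.05 and a 1.5-fold change, the limits of the study's methods. CPM used TMM-scaled totals, log2 CPM for correlations a prior count of 2, and the SE of a fitted log2 fold change came from its F statistic. The biological coefficient of variation was 18.9%, and n is 2 libraries per group wherever a test is given. A group with both libraries at 0 was set to 3 counts in its smaller library for a lower bound, and one with up to 3 counts per library gave a ratio of summed counts with an exact 95% binomial interval.

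The 10 genes, the lists of other genes and the tests were chosen with earlier results of these data known. Named in the text are all 10 genes, the 2 strongest increases and 2 strongest decreases at most per list and comparison among calls whose libraries do not overlap, the 3 most correlated genes, and the nearest protein-coding neighbours. Some genes that this rule picks are not reported here. Gene spans and exon lengths are from GENCODE vM1 (mm9), which held 33223 of the 34199 symbols (97.1%). Counts of 12739 genes were simulated with the real means and library sizes and 200 genes changed between CAF-1 OFF and uninduced libraries. Of the changes of 2 (log2) 74% were recovered, of those of 1 38.1%, and 3 unchanged genes were called. In the real comparison a larger share was called, 10.5% of tested genes higher and 3.5% lower, so these rates need not hold there. Alternatives were DESeq2 1.42.0, other scalings, filters, thresholds and sample sets, a replicate block and leaving out each library.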

Additional observations from a re-analysis of the deposited data

How the results depend on the processing

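At adjusted p under 0.01 and 2-fold, 2 of the 9 tested genes were higher in CAF-1 OFF than in uninduced cells (2.61% of all genes) and 1 than in IPTG-treated control cells (2.03%), and 5 of 77 other lymphoid genes were higher and 0 lower (0.168% of all genes) than in uninduced cells. The 1 other lymphoid gene called lower there became 2 with no filter, with DESeq2, with only the groups compared and with no fold threshold. Leaving out each library in turn, where a lone library is assumed to vary like the other groups, gave 0 to 4 of the 10 genes higher and 0 to 1 lower (Rag2) against uninduced cells, 1 to 3 higher and 0 to 1 lower (Rag2) against the IPTG-treated control, and 2 to 17 other lymphoid genes higher and 0 to 2 lower. Same-numbered libraries deviated together among the uninduced, IPTG-treated control and HOXA9 OFF groups (r = 0.30 to 0.48) but not with CAF-1 OFF (-0.04 to 0.08), and the labels do not say what a number shares, so the numbers were not taken to pair the libraries. With a replicate block 4 of the 9 tested genes were higher against uninduced and 3 against IPTG-treated control cells, as without it, 17 other lymphoid genes were higher and 2 lower against uninduced cells, and in HOXA9 OFF cells 30 were higher and 18 lower. Satb1 against uninduced cells fell under 1.5-fold with no filter (log2 fold change 0.57), and against the IPTG-treated control it was called with library size only (0.61). Scaling by library size only moved the median of all genes in HOXA9 OFF against uninduced cells from 0.01 to -0.18, and 24 other lymphoid genes were then higher and 22 lower. Of 1164 alternative values of single genes, 1047 kept their side of the threshold or moved within the replicate spread, 102 lost a call, 10 gained one, 5 untested values moved further and 0 changed direction across a call. With 2 libraries per group, changes near 1.5-fold and genes near 3 counts lie at the limit of detection.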

Other observations

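The nearest protein-coding genes on either side of the 10 genes, 18 in all beside Rag1 and Rag2 themselves, had 12 tested. Of these, 1 was higher and 1 lower in CAF-1 OFF than in uninduced cells (10.5% and 3.5% of all genes), 0 were called in either direction against the IPTG-treated control, where Traf6 had an unadjusted p of 0.00182 and an adjusted p of 0.0216 at under 1.5-fold (edgeR), and 1 was higher and 1 lower in HOXA9 OFF cells (25.2% and 22.1% of all genes). Grb7, an adaptor protein gene 9528 bases from Ikzf3, had 0 and 6 counts in uninduced and 38 and 69 in CAF-1 OFF libraries (log2 fold change 4.36 ± 1.03 SE, edgeR adjusted p = 0.0257), and 0.0709 against the IPTG-treated control. The call was lost without uninduced replicate 1 (0.114) or either CAF-1 OFF library (0.0606 and 0.163). Blnk, 34739 bases from Dntt, rose in HOXA9 OFF cells where Dntt had no counts. Its HOXA9 OFF libraries stood at 8.41 and 63.3 CPM, replicate 2 the higher, the order also seen for Il7r at 1.25 and 40.2 CPM. Egfl7, a secreted endothelial factor gene 63350 bases from Notch1, fell by 2.40 ± 0.33 on the log2 scale in HOXA9 OFF cells (adjusted p = 0.000543), from 9.96 and 13.5 to 1.74 and 2.68 CPM, while Notch1 was higher there.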
